A study of Mus musculus with 9 samples.

Results

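NRF2, encoded by *Nfe2l2*, and its inhibitor KEAP1, encoded by *Keap1*, were followed with 8 genes that NRF2 is known to activate: *Gclc*, *Gclm*, *Txnrd1*, *Srxn1*, *Prdx1*, *Nqo1*, *Hmox1* and *Osgin1*. These 10 genes were chosen by name from a list of the NRF2 antioxidant response. All 10 were among the 43346 genes listed, and all 10 passed the filter on low counts that left 15024 genes for testing. They were measured by bulk RNA-Seq of whole liver from 9 mouse samples in 3 groups of 3 (n = 3 for every mean below). All mice were wild-type C57/BL6, aged 12 weeks, and underwent 70% partial hepatectomy. The baseline group was liver of vehicle-treated mice at 0 hours, the tissue removed at surgery. The other 2 groups were liver remnants 40 hours after hepatectomy from vehicle-treated mice and from mice given NSC-87877 (NSC), a small molecule inhibitor of the phosphatases SHP1 and SHP2, at 7.5 mg/kg per dose or 15 mg/kg per day. Treatment began 12 hours before surgery according to the sample records. Resected liver of NSC-treated mice was not analysed here, so each 40-hour group was set against the same 3 baseline livers of vehicle-treated mice, and in the comparison of NSC remnants with baseline the effects of surgery and of dosing cannot be told apart. Whether samples with the same number came from the same mouse is not stated, and the main fit treated all samples as unpaired. Its p-values set each difference between groups against the spread between these samples.

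In resting cells KEAP1 binds NRF2 and delivers it to a CUL3 ubiquitin ligase for degradation, and oxidants or electrophiles that modify KEAP1 let NRF2 accumulate. NRF2 then pairs with a small MAF protein on antioxidant response elements, where it competes with the repressor BACH1. Its targets make and recycle glutathione and thioredoxin, supply NADPH, break down heme and conjugate and export foreign compounds, and the liver expresses many of them at high levels. Much of NRF2 regulation occurs on the protein, which was not measured here, so *Nfe2l2* mRNA is not a measure of NRF2 activity.

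The promoters of these genes are among the places where NRF2 can act. The 6 that carry a matching motif near the start are shown first, so that the expression of each gene can be read beside its sequence. RefSeq promoter entries (GRCm38.p6, the 250 bases before an annotated start) matched 8 of the 10 genes, not *Gclc* or *Hmox1*, and gave 10 promoters because *Txnrd1* has 3 starts. Both strands were searched for the core of the antioxidant response element, TGACNNNGC, and for the related AP-1 motif, TGACTCA, which can lie inside it. In the sequences below, written 5′ to 3′ in the direction of the gene, capitals mark every match of either motif.
Nfe2l2, chr2:75704664-75704913, - strand: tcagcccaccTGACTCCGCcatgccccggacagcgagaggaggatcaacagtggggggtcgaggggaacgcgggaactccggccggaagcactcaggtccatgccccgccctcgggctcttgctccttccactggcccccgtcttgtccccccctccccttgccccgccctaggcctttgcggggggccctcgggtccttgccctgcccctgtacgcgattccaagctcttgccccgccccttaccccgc
Gclm, chr3:122245307-122245556, + strand: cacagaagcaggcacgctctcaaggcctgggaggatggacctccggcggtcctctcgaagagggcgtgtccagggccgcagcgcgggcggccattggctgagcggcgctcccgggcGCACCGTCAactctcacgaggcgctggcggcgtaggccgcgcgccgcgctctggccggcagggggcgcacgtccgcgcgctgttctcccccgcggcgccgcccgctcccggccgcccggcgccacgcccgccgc
Txnrd1, chr10:82858956-82859205, + strand: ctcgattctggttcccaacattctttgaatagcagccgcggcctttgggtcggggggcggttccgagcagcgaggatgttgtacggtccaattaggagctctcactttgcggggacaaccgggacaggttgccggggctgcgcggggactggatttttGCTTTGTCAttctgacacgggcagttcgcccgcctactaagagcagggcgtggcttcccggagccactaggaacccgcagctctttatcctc
Srxn1, chr2:152105274-152105523, + strand: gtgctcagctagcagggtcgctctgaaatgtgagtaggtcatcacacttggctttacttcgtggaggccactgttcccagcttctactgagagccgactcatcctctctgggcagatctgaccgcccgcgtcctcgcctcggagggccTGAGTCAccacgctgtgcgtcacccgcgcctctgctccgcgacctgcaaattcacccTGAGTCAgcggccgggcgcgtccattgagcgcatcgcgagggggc
Osgin1, chr8:119436897-119437146, + strand: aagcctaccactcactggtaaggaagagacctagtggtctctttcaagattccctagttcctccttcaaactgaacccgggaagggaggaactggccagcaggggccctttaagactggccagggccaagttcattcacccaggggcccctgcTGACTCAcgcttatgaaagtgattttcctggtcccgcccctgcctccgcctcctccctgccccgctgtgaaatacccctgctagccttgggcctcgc
Prdx1, chr4:116685349-116685598, + strand: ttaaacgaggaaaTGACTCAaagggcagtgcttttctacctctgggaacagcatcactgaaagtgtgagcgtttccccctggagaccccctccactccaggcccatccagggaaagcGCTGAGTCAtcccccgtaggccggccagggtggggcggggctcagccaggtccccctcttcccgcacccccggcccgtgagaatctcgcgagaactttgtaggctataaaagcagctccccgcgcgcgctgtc

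The element core was found in 4 of the 10 promoters, those of *Nfe2l2*, *Gclm*, *Prdx1* and 1 of the 3 *Txnrd1* starts, and in 10.2% of all 32851 RefSeq promoters of the same length. In *Nfe2l2* it lay 240 to 232 bases before the start, in *Gclm* 134 to 126 bases before it, and in *Txnrd1* 92 to 84 bases before a start that adjoins the first base of the gene as counted here. The AP-1 motif was found in the promoters of *Osgin1*, *Srxn1* and *Prdx1*, and in 4.46% of all promoters. It occurred once in *Osgin1*, 97 to 91 bases before the start, 2 times in *Srxn1* and 2 times in *Prdx1*. The *Osgin1* start used here lies inside the gene as counted, which begins at 119434124. In *Prdx1* the motifs overlap, since the element core 133 to 125 bases before the start contains the AP-1 match at 131 to 125. No match in these windows was found for *Keap1* or *Nqo1*, and sequence outside the windows was not searched. These matches describe letters in the sequence, and factor binding was not measured.

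In the deposited positions, which correspond to mouse GRCm38 (those of 6 of the 10 genes equal the GENCODE M21 annotation), *Hmox1* (ENSMUSG00000005413), *Nqo1* and *Osgin1* (ENSMUSG00000074063) lie on chromosome 8, at 75093591 to 75100596, 107388225 to 107403206 and 119434124 to 119446256. *Nfe2l2* (ENSMUSG00000015839) and *Srxn1* lie on chromosome 2, at 75675513 to 75704641 and 152105516 to 152111376, and *Keap1* and *Gclc* on chromosome 9, at 21229730 to 21239332 and 77754535 to 77794485. *Gclm* lies on chromosome 3 (122245557 to 122269984), *Prdx1* on chromosome 4 (116685544 to 116700822) and *Txnrd1* on chromosome 10 (82859206 to 82897724).

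Library totals lay between 23997363 and 42887589 counted reads, and a floor of 3 reads lay at 0.0751 to 0.117 CPM, the normalized scale used for single genes (reads relative to TMM-adjusted library size). The gene with the fewest reads, *Nqo1*, held 257 to 628 reads per library, so none of the 10 genes was near that floor. NSC replicate 1 stood apart from the other NSC livers. On the second principal component of all tested genes, which held 13.2% of the variance, it lay at -31.0, next to the vehicle livers (-28.1 to -13.4), against 32.5 and 54.0 for NSC replicates 2 and 3. Its summed level of 5 proliferation markers was 191 CPM, against 750 and 614 CPM in those livers and 273 to 330 CPM in vehicle livers. Summed levels of 10 hepatocyte markers, among them albumin, were 130096 to 137136 CPM at baseline, 100413 to 137344 CPM in vehicle remnants and 104215 to 117720 CPM in NSC remnants, so that every NSC liver lay below every baseline liver. Of the 10 markers, 4 (40%) passed as lower in vehicle and 5 (50%) in NSC remnants, against 11% and 16.5% of all genes. Their median log2 fold changes were -0.67 and -0.88, and *Alb*, *Ttr*, *Apoa1*, *Apob* and *Hnf4a* passed in neither group. In whole liver, fewer cells of a type and less RNA per cell cannot be told apart.

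At baseline the 10 genes spanned a wide range of levels per transcript length. On the FPKM scale, which divides counts by gene length and library total, *Prdx1*, encoding an abundant peroxidase of the cytosol, had the highest mean level at 299 FPKM and *Hmox1*, encoding the heme-degrading enzyme heme oxygenase 1, had the lowest at 6.37 FPKM. *Gclc*, encoding the catalytic subunit of the rate-limiting enzyme of glutathione synthesis, followed *Prdx1* at a mean of 95.5 FPKM. Its 3 livers spread from 46.3 to 125 FPKM and overlapped those of *Osgin1* (mean 48.9 FPKM), an oxidative stress response gene that restrains growth. *Osgin1* in turn overlapped *Txnrd1* (38.8 FPKM), which encodes the cytosolic thioredoxin reductase. *Gclm* (32.3 FPKM), *Srxn1* (16.6 FPKM), *Nfe2l2* (12.0 FPKM) and *Keap1* (9.26 FPKM) followed without overlap between neighbors. *Nqo1*, encoding a quinone reductase often used as a readout of NRF2, stood at 6.93 FPKM and overlapped *Hmox1*.

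At 40 hours after hepatectomy the order changed at both ends. *Osgin1* moved to the second place, with mean levels of 141 FPKM in vehicle remnants and 139 FPKM in NSC remnants, above *Gclc* at 60.9 and 91.2 FPKM and without overlap in either group. *Hmox1* left the last place with 18.3 FPKM in vehicle and 17.4 FPKM in NSC remnants. It then overlapped *Srxn1* and *Nfe2l2* in vehicle livers, and *Nfe2l2* and *Nqo1* in NSC livers. The lowest mean belonged to *Nqo1* in vehicle remnants (7.24 FPKM) and to *Keap1* in NSC remnants (8.85 FPKM). *Prdx1* kept the highest mean level in both groups.

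**Figure D1:**
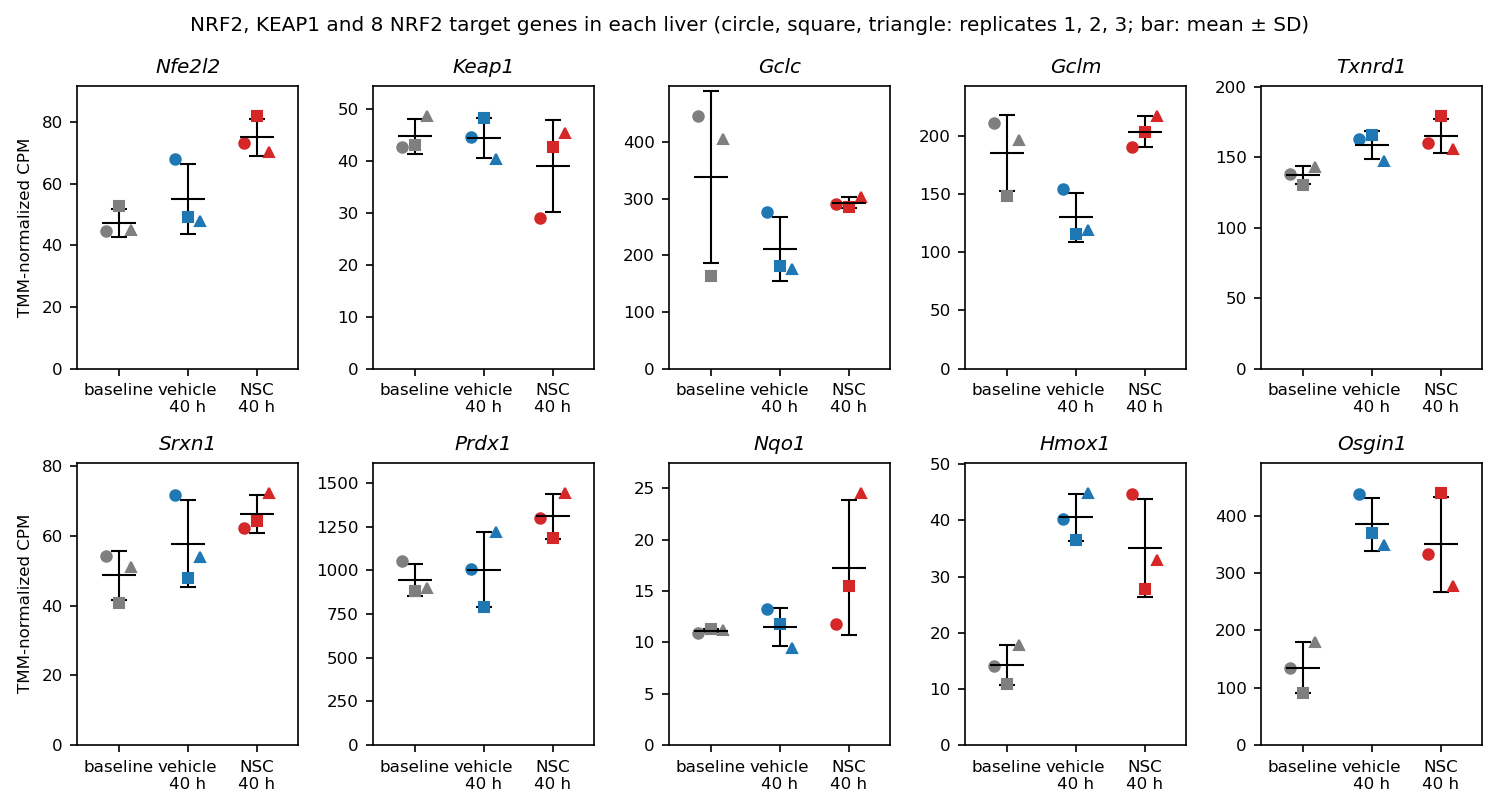
Expression of the 10 genes in each of the 9 livers, as TMM-normalized CPM on linear axes that start at 0. Circles, squares and triangles are replicates 1, 2 and 3, and bars give the mean ± SD. *Hmox1*, *Osgin1* and, by a small margin, *Txnrd1* lie higher in all 6 remnants than in all 3 baseline livers. *Nfe2l2*, *Nqo1*, *Srxn1* and *Prdx1* do so in the 3 NSC remnants. *Nfe2l2*, *Gclc* and *Gclm* are lower in vehicle than in NSC remnants.

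The first comparison asked how vehicle remnants differed from resected liver. *Hmox1* and *Osgin1* rose, by factors of 2.84 and 2.85, and the other 8 genes did not pass an adjusted p of 0.05. Of all 15024 genes tested, 12.7% passed as higher and 11% as lower, so that 2 of 10 higher and 0 of 10 lower is close to what the whole table shows. Groups did not overlap, in the upward direction, for 3 of the 10 genes and for 24.2% of all genes. The median log2 fold change was 0.15 over the 10 genes and 0.01 over all genes.

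*Hmox1* stood at 14.1, 10.9 and 17.8 CPM in the 3 baseline livers and at 40.2, 36.5 and 44.9 CPM in the 3 vehicle remnants. Every remnant lay above every baseline liver. The mean rose from 14.2 ± 3.48 CPM (SD) to 40.5 ± 4.24 CPM, a log2 fold change of 1.51 ± 0.21 (SE, adjusted p = 0.000619, edgeR quasi-likelihood F test). *Osgin1* stood at 135, 91.5 and 180 CPM at baseline and at 438, 369 and 350 CPM in vehicle remnants. Its groups also lay apart, with a log2 fold change of 1.51 ± 0.25 (SE, adjusted p = 0.00141 in edgeR). Both exceeded an absolute log2 fold change of 1.5, which together with the adjusted p was met by 7.22% of all genes. Both also kept an adjusted p under 0.05 under all 20 alternative settings and left-out libraries. Over these the log2 fold change was 1.35 to 1.71 for *Hmox1* and 1.30 to 1.78 for *Osgin1*. The threshold of 1.5 was thus not met in all of them.

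The glutathione synthesis genes leaned the other way without passing. *Gclm*, encoding the regulatory subunit of the enzyme whose catalytic subunit is *Gclc*, stood at 211, 149 and 196 CPM at baseline and at 155, 116 and 119 CPM in vehicle remnants. Baseline replicate 2 lay below vehicle replicate 1, so the groups overlapped, and the log2 fold change was -0.51 ± 0.18 (SE, adjusted p = 0.0524, edgeR). *Gclc* stood at 446, 164 and 406 CPM at baseline and at 277, 181 and 176 CPM in vehicle remnants. Baseline replicate 2 was the lowest of all 9 livers, and the log2 fold change was -0.68 ± 0.32 (SE, adjusted p = 0.151, edgeR). Without baseline replicate 2 the same test passed for both, with -1.01 for *Gclc* (adjusted p = 0.00775) and -0.65 for *Gclm* (adjusted p = 0.0266), and the count of genes passing was 4. Without baseline replicate 1 the value for *Gclc* was -0.43 (adjusted p = 0.420, edgeR). *Gclm* also passed without vehicle replicate 1 (adjusted p = 0.0409, edgeR) and without NSC replicate 1 (adjusted p = 0.0387, edgeR), and in 11 of 20 alternatives in all.

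Among the remaining genes, log2 fold changes in vehicle remnants lay between -0.01 for *Keap1* and 0.25 for *Srxn1*, encoding the sulfiredoxin that repairs oxidized peroxiredoxins. *Nfe2l2* stood at 44.5, 52.7 and 44.9 CPM at baseline and at 68.2, 49.1 and 48.0 CPM in vehicle remnants. Only vehicle replicate 1 was above the baseline range, and the log2 fold change was 0.22 ± 0.16 (SE, adjusted p = 0.352, edgeR). *Txnrd1* was the third gene whose groups did not overlap, at 138, 131 and 144 CPM against 163, 166 and 148 CPM, with a log2 fold change of 0.21 (adjusted p = 0.291, edgeR). *Nqo1* was close to level, at 11.0 to 11.3 CPM in baseline livers and 9.49 to 13.2 CPM in vehicle remnants.

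**Figure D2:**
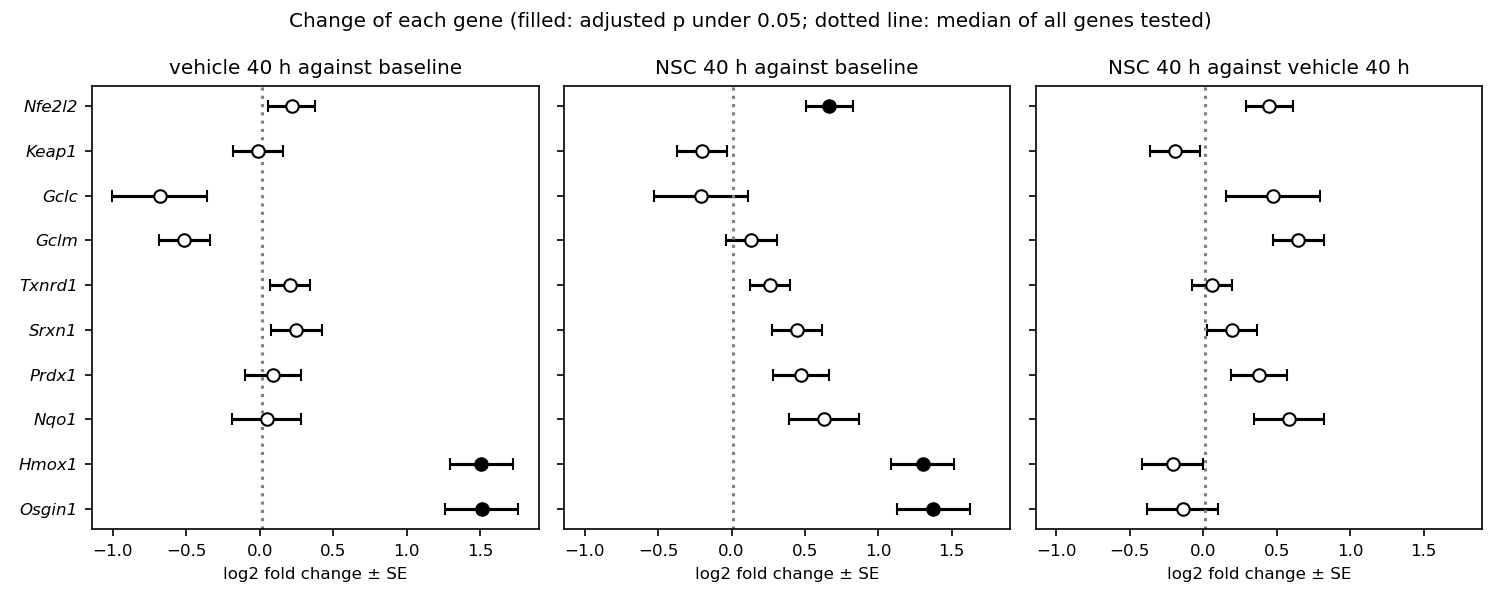
Log2 fold change of each gene ± standard error in the 3 comparisons, with filled points for an adjusted p under 0.05 and a dotted line at the median of all genes tested. Filled points are *Hmox1* and *Osgin1* in both comparisons with baseline and *Nfe2l2* in NSC remnants, and no point is filled in the direct comparison.

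The second comparison set NSC remnants against the same baseline livers. *Nfe2l2*, *Hmox1* and *Osgin1* rose, by factors of 1.59, 2.46 and 2.59, and the other 7 genes did not pass. Of all genes tested, 18.2% passed as higher and 16.5% as lower, against 3 and 0 of the 10 genes. In 7 of the 10 genes all NSC remnants lay above all baseline livers, which held for 24% of all genes. The median log2 fold change was 0.46 over the 10 genes and 0.01 over all genes. None of the 10 exceeded an absolute log2 fold change of 1.5 together with the adjusted p, as 8.13% of all genes did.

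*Nfe2l2* stood at 73.2, 81.9 and 70.4 CPM in the 3 NSC remnants, above every baseline and every vehicle liver. Its mean rose from 47.4 ± 4.59 CPM (SD) at baseline to 75.2 ± 6.01 CPM, a log2 fold change of 0.67 ± 0.16 (SE, adjusted p = 0.00746, edgeR quasi-likelihood F test). It passed without each library in turn, and was 0.43 with an adjusted p of 0.0565 in edgeR after correction for GC content. *Hmox1* stood at 44.7, 27.7 and 32.9 CPM in NSC remnants, all above baseline, with a log2 fold change of 1.30 ± 0.21 (SE, adjusted p = 0.000916, edgeR). *Osgin1* stood at 333, 440 and 277 CPM, again above every baseline liver, with a log2 fold change of 1.37 ± 0.25 (SE, adjusted p = 0.00159, edgeR). These 2 genes passed under all 20 alternatives here too.

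*Nqo1* differed most among NSC livers, at 11.8, 15.5 and 24.6 CPM, against 11.0, 11.3 and 11.2 CPM at baseline. NSC replicate 1 was just above the baseline livers and replicate 3 was the highest of all 9. The log2 fold change was 0.63 ± 0.24 (SE, adjusted p = 0.0564, edgeR), and it was 0.84 (adjusted p = 0.00715, edgeR) without NSC replicate 1, where 4 genes passed. Without NSC replicate 3 it was 0.29 (adjusted p = 0.257, edgeR), and after GC correction 0.40 (adjusted p = 0.248, edgeR). *Srxn1* stood at 62.2, 64.3 and 72.3 CPM against 54.1, 40.7 and 51.0 CPM at baseline, with a log2 fold change of 0.45 ± 0.17 (SE, adjusted p = 0.0614, edgeR) and an adjusted p of 0.0463 by edgeR when vehicle replicate 1 was left out of the fit. *Prdx1* stood at 1297, 1186 and 1444 CPM against 1052, 883 and 897 CPM, with a log2 fold change of 0.47 ± 0.19 (SE, adjusted p = 0.0753, edgeR) that was 0.011 after GC correction (adjusted p = 0.970, edgeR). For *Nqo1*, *Srxn1* and *Prdx1* every NSC remnant lay above every baseline liver, yet none passed the adjusted threshold. *Txnrd1*, the seventh gene whose groups lay apart, was at 161, 179 and 156 CPM (log2 fold change 0.27, adjusted p = 0.150, edgeR). *Gclc*, *Gclm* and *Keap1* overlapped baseline, with log2 fold changes of -0.21, 0.14 and -0.20. NSC replicate 1 had the lowest *Keap1* of all livers, 28.9 CPM, and the other NSC livers, at 42.6 and 45.4 CPM, lay at or near the baseline range of 42.6 to 48.6 CPM.

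The third comparison tested the treatments directly at 40 hours. None of the 10 genes passed, in a comparison in which 0% of all genes passed as higher and 0.0399% (6 genes) as lower, and 0.02% passed with an absolute log2 fold change over 1.5. At an unadjusted p under 0.05, edgeR counted 3 of the 10 genes, *Nfe2l2*, *Nqo1* and *Gclm*, and 2929 of the 15024. DESeq2 called 1 of the 10, *Gclm*, as higher, beside 286 of the 15024 as higher and 470 as lower. All NSC remnants lay above all vehicle remnants for *Nfe2l2*, *Gclc* and *Gclm*, and 10.3% of all genes did so. The median log2 fold change was 0.29 over the 10 genes and 0.02 over all genes. *Nfe2l2* thus passed against baseline in NSC and not in vehicle remnants, and its direct difference between the treatments did not pass.

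*Gclm* had the smallest p-value of the 10. It stood at 190, 203 and 217 CPM in NSC remnants and at 155, 116 and 119 CPM in vehicle remnants, 203 ± 13.2 CPM (SD) against 130 ± 21.4 CPM. The log2 fold change was 0.65 ± 0.18 (SE, adjusted p = 0.102, edgeR), and 0.38 after GC correction (adjusted p = 0.496, edgeR). *Gclc*, its partner, stood at 291, 285 and 304 CPM against 277, 181 and 176 CPM, with a log2 fold change of 0.47 ± 0.32 (SE, adjusted p = 0.435, edgeR), and vehicle replicate 1 came close to the NSC livers. *Nfe2l2* differed by 0.45 ± 0.16 (SE, adjusted p = 0.167, edgeR) and *Nqo1* by 0.58 ± 0.24 (SE, adjusted p = 0.208, edgeR). Without NSC replicate 1, 2 genes passed, *Nqo1* at 0.79 (adjusted p = 0.0388, edgeR) and *Gclm* at 0.69 (adjusted p = 0.0461, edgeR), while 574 of 15390 genes then passed as higher and 420 as lower. Without NSC replicate 3, *Nqo1* was at 0.24 (adjusted p = 0.504, edgeR) and *Gclm* at 0.60 (adjusted p = 0.164, edgeR). *Hmox1* and *Osgin1*, the genes that rose from baseline in both treatments, differed by -0.21 ± 0.21 (SE) and -0.14 ± 0.24 (SE), with overlapping groups and adjusted p-values of 0.601 and 0.786 in edgeR. *Prdx1* differed by 0.38 (0.14 after GC correction and 0.23 without vehicle replicate 2), *Srxn1* by 0.20, *Txnrd1* by 0.06 and *Keap1* by -0.19, none past the threshold.

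The 10 genes did not move as 1 block across livers. As a description over the 9 livers, which share groups, surgery and depth, *Hmox1* and *Osgin1* followed each other with a Pearson r of 0.91, and *Txnrd1* and *Osgin1* did so as well (0.91). *Gclc* and *Gclm* had an r of 0.84, and *Hmox1* had an r of -0.21 with *Gclc* and -0.30 with *Gclm*. After the mean of each group was taken away, *Gclc* and *Gclm* remained close (0.93), *Gclm* and *Srxn1* came to 0.96, and *Hmox1* and *Osgin1* to 0.35. Within groups, baseline replicate 2 was the lowest of the baseline livers in *Gclc*, *Gclm*, *Srxn1* and *Osgin1*, and vehicle replicate 1 was the highest of the vehicle livers in the same 4 genes. Over all tested genes, those whose pattern across the 9 livers was most like *Nfe2l2* were *Meiob* (r = 0.94), *Gm8113* (0.94) and *Pls1* (0.93). Most like *Hmox1* were *Acnat2* (0.99), *Gm379* (0.98) and *Pcdh18* (0.97), and most like *Osgin1* were *Nek6* (0.99), *Rcor1* (0.98) and *Tmem43* (0.98).

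*Hmox1* is also expressed by macrophages, which clear heme, and 12 macrophage and Kupffer cell markers were therefore summed in each liver. The sum was 353, 260 and 261 CPM at baseline, 366, 445 and 247 CPM in vehicle remnants and 704, 423 and 450 CPM in NSC remnants. In the same order *Hmox1* stood at 14.1, 10.9 and 17.8 CPM, at 40.2, 36.5 and 44.9 CPM, and at 44.7, 27.7 and 32.9 CPM. Within vehicle remnants it was highest where the sum was lowest, and within NSC remnants it was highest where the sum was highest. Of the 12 markers, 2 (16.7%) passed as higher in vehicle remnants and 5 (41.7%) in NSC remnants, against 12.7% and 18.2% of all genes. The vehicle share was thus near that of the whole table. Median log2 fold changes of the markers were 0.16 and 0.73. *Marco*, a scavenger receptor, rose most, by 3.39 and 4.10 on the log2 scale (adjusted p = 0.00561 and 0.00190, edgeR). *Cd68* passed as higher in both groups (1.04 and 0.97). *Vsig4* (1.11), *Timd4* (1.48) and *Cd5l* (1.39) passed as higher in NSC remnants only. The other 7 markers passed in neither group, among them the Kupffer cell gene *Clec4f* at -0.54 and 0.08. Summed neutrophil markers were 1.89 to 6.51 CPM at baseline, 8.19 to 15.6 CPM in vehicle remnants and 11.4 to 17.2 CPM in NSC remnants. The part of macrophages and of neutrophils in the *Hmox1* values was not tested.

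**Figure D3:**
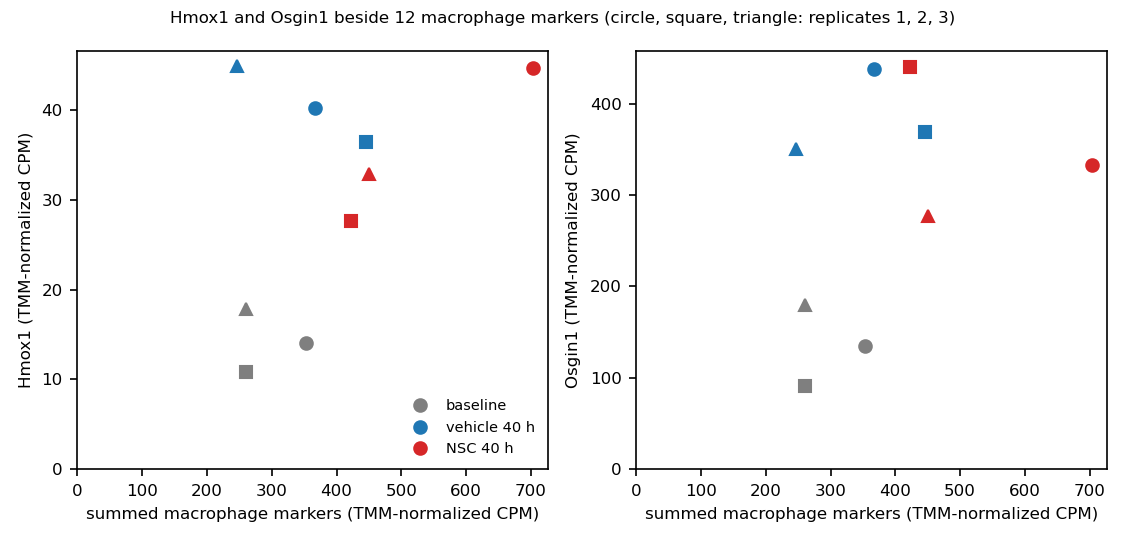
*Hmox1* (left) and *Osgin1* (right) in each liver against the summed level of 12 macrophage and Kupffer cell markers, all in TMM-normalized CPM on linear axes. Colors are groups and shapes are replicates 1, 2 and 3. At sums between 247 and 366 CPM, baseline livers hold 10.9 to 17.8 CPM of *Hmox1* and vehicle livers 40.2 and 44.9 CPM. In NSC livers *Hmox1* is 27.7, 32.9 and 44.7 CPM at sums of 423, 450 and 704 CPM.

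Beyond the 10 genes, 83 other genes of NRF2 regulation and of the processes its targets serve were followed as a list, of which 80 could be tested. Many of them also have regulators other than NRF2. In vehicle remnants 31 of the 80 (38.8%) passed as lower and 3 as higher, with a median log2 fold change of -0.36, against 11% lower, 12.7% higher and a median of 0.01 over all genes. In NSC remnants 22 (27.5%) passed as lower and 5 as higher, with a median of -0.34, against 16.5% and 18.2% of all genes. In the direct comparison 0 of 80 passed in edgeR, 15 had an unadjusted p under 0.05, DESeq2 called 6, and the median was 0.08. Of all 15024 genes, 2929 had an unadjusted p under 0.05 in edgeR, and DESeq2 called 286 as higher and 470 as lower. Leaving out baseline replicate 1 or 3 lowered the count passing in vehicle remnants from 34 to 19. Leaving out vehicle replicate 1, 2 or 3 lowered that count to 22, 22 and 21. Counts over all genes fell too, from 1914 higher and 1650 lower. They were 1217 and 1112 without baseline replicate 1, and 1236 and 1049 without baseline replicate 3. Without vehicle replicate 1, 2 or 3 they were 1329 and 1038, 1553 and 1298, and 1410 and 1109. Leaving out NSC replicate 1 raised the direct count from 0 to 12, and leaving out baseline replicate 3 or vehicle replicate 3 raised it to 1. Over all genes the direct counts without NSC replicate 1 were 574 higher and 420 lower, against 0 and 6. They were 0 and 4 without baseline replicate 3, and 17 and 94 without vehicle replicate 3.

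Among 16 partners and regulators of NRF2, 1 passed as higher and 3 as lower in vehicle remnants, and 0 and 5 in NSC remnants. The shares that passed as lower, 18.8% and 31.2%, stood beside 11% and 16.5% of all genes. Those that passed as higher, 6.25% and 0%, stood beside 12.7% and 18.2%. *Mafg*, a small MAF partner, stood at 98.0, 110 and 91.1 CPM at baseline, 66.4, 61.5 and 43.9 CPM in vehicle remnants and 47.9, 56.6 and 53.0 CPM in NSC remnants. It fell by 0.80 (adjusted p = 0.00515, edgeR) and by 0.93 (adjusted p = 0.00162, edgeR) on the log2 scale. *Maff*, another small MAF gene, was low throughout, at 1.80 to 10.2 CPM, and its log2 fold changes of -0.11 and -1.07 did not pass. *Syvn1*, encoding a ubiquitin ligase of the endoplasmic reticulum that can act on NRF2, stood at 88.2, 72.0 and 137 CPM at baseline and 233, 174 and 287 CPM in vehicle remnants, and rose by 1.22 (adjusted p = 0.00433, edgeR). In NSC remnants *Syvn1* stood at 84.3, 81.6 and 70.0 CPM, below every vehicle remnant, with a direct log2 fold change of -1.56 ± 0.25 (SE, adjusted p = 0.0847, edgeR). *Sqstm1*, encoding p62, which binds KEAP1, had a log2 fold change of -0.41 in vehicle remnants (adjusted p = 0.139) and fell by 0.63 in NSC remnants (adjusted p = 0.0255, edgeR), a call lost without baseline replicate 1 or 3 or NSC replicate 2 or 3 (adjusted p = 0.0588 to 0.0969, edgeR). The repressor gene *Bach1* (-0.33 and -0.24) and *Cul3* (-0.17 and 0.12) did not pass in either group.

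Of the other glutathione genes tested, 2 of 8 (25%) passed as higher in vehicle and 3 of 8 (37.5%) in NSC remnants, against 12.7% and 18.2% of all genes, and 0 as lower. *Gss*, encoding glutathione synthetase, which acts after the *Gclc* and *Gclm* enzyme, stood at 60.6, 47.0 and 71.3 CPM at baseline, 123, 115 and 118 CPM in vehicle remnants and 92.7, 139 and 149 CPM in NSC remnants. It rose by 0.99 (adjusted p = 0.00429, edgeR) and 1.09 (adjusted p = 0.00176, edgeR) with no overlap. *Ggct*, of glutathione breakdown, rose by 0.97 and 1.11. *Gsr*, which returns oxidized glutathione to its reduced form, was at -0.07 in vehicle remnants and rose by 0.48 in NSC remnants (adjusted p = 0.0494, edgeR), where its groups still overlapped. Leaving out any library but NSC replicate 1 lost that call, with adjusted p-values of 0.0632 to 0.159 in edgeR. *Slc7a11*, the cystine transporter, had at most 28 reads in any library and was not tested.

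Thioredoxin, peroxide and NADPH genes other than the 10 passed only as lower. Among 10 further thioredoxin and peroxiredoxin genes 4 (40%) passed as lower in each group. Of all genes, 11% did so in vehicle and 16.5% in NSC remnants. *Txn1*, the thioredoxin that *Txnrd1* reduces, did not pass (-0.33 and -0.09). *Cat*, encoding catalase, stood at 2826, 2418 and 2793 CPM at baseline, 934, 1045 and 888 CPM in vehicle remnants and 912, 1243 and 1306 CPM in NSC remnants, and fell by 1.49 (adjusted p = 0.000324, edgeR) and 1.22 (adjusted p = 0.000673, edgeR). All 3 genes of superoxide and peroxide removal passed as lower in vehicle remnants and 1 (33.3%) did in NSC remnants, beside the same shares of all genes. *Me1*, encoding the NADPH-producing malic enzyme, stood at 250, 385 and 192 CPM at baseline, 64.5, 46.4 and 53.6 CPM in vehicle remnants and 74.2, 71.1 and 79.4 CPM in NSC remnants. It fell by 2.33 (adjusted p = 9.04e-05, edgeR) and 1.88 (adjusted p = 0.000189, edgeR), while *G6pdx*, of the pentose phosphate pathway, did not pass (0.32 and 0.33). Of the 6 NADPH genes, 3 (50%) and 2 (33.3%) passed as lower, against 11% and 16.5% of all genes.

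**Figure D4:**
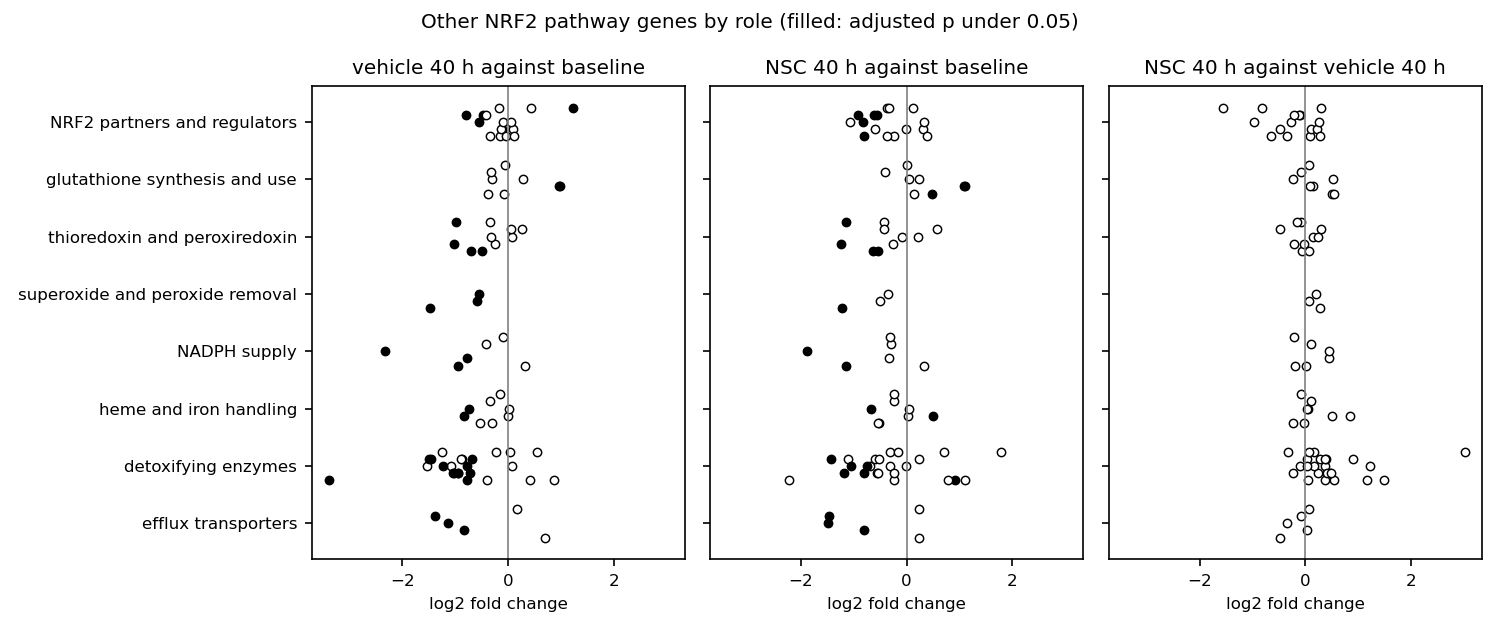
Log2 fold change of the 80 other NRF2 pathway genes tested, by role, in the 3 comparisons, with filled points for an adjusted p under 0.05. Most filled points lie left of 0 in both comparisons with baseline (31 of 34 in vehicle and 22 of 27 in NSC remnants), and no point is filled in the direct comparison.

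Of 24 detoxifying enzymes, 13 (54.2%) passed as lower and 0 as higher in vehicle remnants, against 11% and 12.7% of all genes. In NSC remnants 5 (20.8%) passed as lower and 1 as higher, against 16.5% and 18.2% of all genes, so that the share that fell was near that of the whole table. In the same remnants 4 and 5 of 10 hepatocyte markers (40% and 50%) passed as lower. *Alb*, *Ttr*, *Apoa1*, *Apob* and *Hnf4a* passed in neither group, and the part of hepatocytes in the enzyme values was not tested. *Gsta2*, a glutathione S-transferase, stood at 67.1, 23.6 and 50.4 CPM at baseline and at 5.78, 3.03 and 4.54 CPM in vehicle remnants, and fell by 3.40 (adjusted p = 0.0185, edgeR). In NSC remnants it stood at 2.49, 7.61 and 20.2 CPM, with a log2 fold change of -2.23 that did not pass (adjusted p = 0.0509, edgeR). *Gstm1* fell by 1.5 in vehicle remnants (adjusted p = 0.0361, edgeR) and was at -1.11 in NSC remnants (adjusted p = 0.0771, edgeR). Without baseline replicate 1 or 3, or any vehicle replicate, *Gsta2* in vehicle remnants no longer passed (adjusted p = 0.0525 to 0.0610, edgeR), and *Gstm1* no longer passed without any single baseline or vehicle replicate or NSC replicate 2 (adjusted p = 0.0505 to 0.114, edgeR). Both have close family members, and whether reads were shared with them was not tested. *Aox1*, an aldehyde oxidase, was at -1.46 and -1.43 and passed in both groups (adjusted p = 0.00654 and 0.00481, edgeR). *Akr1b8*, an aldo-keto reductase, was higher by 0.91 in NSC remnants (adjusted p = 0.0346, edgeR) and stood at 0.86 in vehicle remnants without passing (adjusted p = 0.0564). The call was lost without baseline replicate 2 or 3 or NSC replicate 1 or 3 (adjusted p = 0.0571 to 0.134, edgeR). The largest direct difference in the list was that of *Gsta1*, named after its values were seen, at 3.03 ± 1.15 (SE, adjusted p = 0.218, edgeR), and its groups overlapped. The exporters *Abcc3* and *Abcc4* passed as lower in both groups, at -1.14 and -1.39 in vehicle and -1.48 and -1.47 in NSC remnants. In each group 3 of 5 transporters (60%) passed as lower, against 11% and 16.5% of all genes.

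Of 8 other heme and iron genes 0 passed as higher and 2 (25%) as lower in vehicle remnants, against 12.7% and 11% of all genes. In NSC remnants 1 (12.5%) passed as higher and 2 (25%) as lower, against 18.2% and 16.5% of all genes. *Blvra*, encoding the biliverdin reductase that acts on the product of heme breakdown, stood at 13.9, 15.1 and 12.2 CPM at baseline, 13.6, 13.0 and 14.4 CPM in vehicle remnants and 17.1, 19.7 and 21.3 CPM in NSC remnants. It was the 1 gene of the group that rose, by 0.50 in NSC remnants (adjusted p = 0.0228, edgeR). Its value was 0.13 after correction for GC content, and its adjusted p was 0.0615 to 0.101 in edgeR without baseline replicate 1 or 3 or NSC replicate 2 or 3. Neither *Blvra* (direct log2 fold change 0.50, adjusted p = 0.123) nor *Gsr* (0.55, adjusted p = 0.136) passed between NSC and vehicle remnants in edgeR, although every NSC liver lay above every vehicle liver for both.

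Scaling and GC content moved some of these values. With library size alone, 3399 genes passed as higher and 1795 as lower in NSC remnants, against 2728 and 2479 with TMM, and the median log2 fold change of all genes was 0.15 against 0.01, a shift that all values under that scaling carry. After correction for GC content 1893 passed as higher and 2651 as lower in NSC remnants, and 1677 and 2513 in vehicle remnants, against 1914 and 1650 without it. The median log2 fold change of all genes was then -0.067 in NSC and -0.091 in vehicle remnants. Among the 10 genes the direction of *Keap1* in vehicle remnants flipped with the scaling, and after the GC correction *Gclm* in NSC remnants was at -0.34, *Keap1* in NSC remnants at 0.16, and *Keap1* and *Osgin1* in the direct comparison at 0.15 and 0.25. The pseudogene *Gm6061* overlaps *Gclm* on the same strand with at most 201 reads in a library, against 3227 to 6688 for *Gclm*. Reads of *Prdx1* may also be shared with processed copies of the gene elsewhere.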

How the data were processed

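A stranded mRNA kit was used for the 9 whole liver libraries. Within the MAP-RSeq pipeline the authors mapped read pairs by STAR 2.6.1, assigned them to genes with featureCounts of Subread 1.5.1, and deposited raw read counts per gene. They also deposited FPKM values, which are those counts divided by gene length plus 1 base and by the library total (largest relative difference on recomputing 4.96e-10). The submitters' notes name the human build hg38, whereas the gene identifiers and positions are mouse. The strand setting of the counting is not given in the sources used here. All 37 mitochondrial genes were listed at 0. Within each group no library duplicated another.

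Counts were analyzed in R 4.3.3 with edgeR 4.0.16. Genes were kept by filterByExpr, libraries were scaled by TMM factors, and all 9 libraries entered 1 robust quasi-likelihood fit with the group as the only term. The 3 comparisons were each adjusted over 15024 genes by the Benjamini-Hochberg method, and a gene passed at an adjusted p under 0.05. The study also asked for an absolute log2 fold change over 1.5, which was counted separately. The SE of a log2 fold change is its size over the root of its F value. CPM values are TMM-normalized. The procedure was tested on simulated data.

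The 10 genes, the pathway list and the marker lists were chosen with earlier results of these data known. Named pathway genes were up to 4 with the largest positive and 4 with the largest negative log2 fold change among those passing per comparison, and *Bach1*, *Mafg*, *Maff*, *Cul3*, *Sqstm1*, *Slc7a11*, *Gsr*, *Txn1*, *G6pdx* and *Me1* whatever their values. The 3 genes most like each passing gene were taken by Pearson correlation of log2 CPM (prior count 2). *Marco*, *Clec4f*, *Cd68*, *Vsig4*, *Timd4* and *Cd5l* were named after their values were seen. Alternatives were DESeq2 1.42.0, the likelihood ratio and exact tests of edgeR, scaling by RLE factors or by library size only, other filters on counts, a fit of only 2 groups, a replicate block, GC correction (loess, span 0.5), and each library left out in turn. Exact permutation of 3 against 3 cannot go below p = 0.1 and was not used. Depth intervals were not needed, and 3 livers per group limit the precision.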

Additional observations from a re-analysis of the deposited data

How the results depend on the processing

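The rises of *Hmox1* and *Osgin1* from baseline passed in both treatments under all 20 alternatives, and that of *Nfe2l2* in NSC remnants under 18, the exceptions being GC correction (0.43, adjusted p = 0.0565, edgeR) and the replicate block with GC correction (adjusted p = 0.0612). Of the 10 genes, the number passing in vehicle remnants was 2 to 4 with 1 library left out. In NSC remnants it was 5 by DESeq2, 6 with library size only and 0 with the fold change threshold, against 3. Over all genes in NSC remnants, DESeq2 called 2941 as higher and 2778 as lower. Library size only gave 3399 and 1795, against 2728 and 2479. In the direct comparison the number of the 10 passing was 1 by DESeq2 and 0 to 2 with 1 library left out.

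Of the 80 pathway genes, 34, 27 and 0 passed. With 1 library left out the numbers were 19 to 39 in vehicle remnants and 0 to 12 in the direct comparison. The numbers over all genes moved as well. The fold change threshold left 3 and 1 of the 80 in vehicle and NSC remnants. In the direct comparison DESeq2 gave 6, the exact test 2, the likelihood ratio test 4, all genes with at least 1 count 3, and only the 2 groups compared 1. With TMM-normalized CPM per kilobase in place of FPKM, NSC levels were 19.8 for *Nfe2l2*, 85.7 for *Gclc*, 36.7 for *Gclm* and 48.3 for *Txnrd1*, and the baseline level of *Nqo1* was 7.18.

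Small log2 fold changes changed sign. Under GC correction, without and with the replicate block, these were *Nqo1* (-0.095 and -0.077), *Prdx1* (-0.13 and -0.14) and *Keap1* (0.014 and 0.012) in vehicle remnants, *Keap1* (0.16 and 0.15) and *Gclm* (-0.34 and -0.33) in NSC remnants, and *Keap1* (0.15 and 0.14) and *Osgin1* (0.25 and 0.26) in the direct comparison. Under GC correction alone the median of all genes was itself -0.091 in vehicle remnants, -0.067 in NSC remnants and 0.028 in the direct comparison. *Keap1* in vehicle remnants changed sign in 2 more settings, to 0.00044 with library size only and 0.0021 when each library had to hold 10 counts. With 1 library left out, values ranged across 0 for *Keap1* (-0.071 to 0.059), *Nqo1* (-0.064 without vehicle replicate 1, to 0.17) and *Prdx1* (-0.068 without vehicle replicate 3, to 0.24) in vehicle remnants, *Gclc* (-0.54 to 0.038 without baseline replicate 1) and *Gclm* (-0.0019 without baseline replicate 2, to 0.24) in NSC remnants, and *Txnrd1* (-0.0061 without NSC replicate 2, to 0.096) and *Osgin1* (-0.34 to 0.0025 without NSC replicate 3) in the direct comparison. The causes were not tested beyond these settings.

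Same-numbered livers deviated from their group means with correlations of -0.05 to 0.13, and livers of unlike number with -0.115 to 0.066. Only baseline and vehicle livers, both of vehicle-treated mice, could share a mouse, and their same-numbered values were 0.081, 0.070 and -0.048. The value of 0.13 belonged to vehicle and NSC replicate 1. Because not all same-numbered values were over 0.1, the numbers were not used to pair the samples. This check cannot show that the samples came from different mice. With the replicate block 3, 4 and 0 of the 10 genes and 31, 30 and 1 of the pathway genes passed. Over all genes, DESeq2 called 286 higher and 470 lower in the direct comparison, the exact test 57 and 190, and the likelihood ratio test 124 and 288, against 0 and 6.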
